A study of Mus musculus with 24 samples.

Results

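Small RNAs of round spermatids, the haploid germ cells that follow meiosis, were counted on 214 piRNA clusters in heterozygous Ddx4 knock-in mice and in wild-type mice. The comparison took 4 of the 24 libraries of the series, picked by their labels: heterozygous round spermatid libraries 1 and 2, labelled as DDX4 heterozygous knock-in, and wild-type round spermatid libraries 1 and 2. The other small RNA libraries, 2 each of homozygous knock-in spermatids and of heterozygous, homozygous and wild-type pachytene spermatocytes, entered the fit to estimate the spread and are quoted where they bear on a result. All cells came as enriched fractions of digested testis; the labels name no strain, age or number of animals. Every value is a share, the percent of a library's cluster reads that fell on a cluster.

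piRNA clusters are genomic loci whose long transcripts are cut into PIWI-interacting RNAs, small RNAs that bind PIWI proteins and guide them to transposon RNAs and to some messenger RNAs. Prepachytene clusters are mostly protein-coding host genes whose transcripts feed piRNAs from before meiosis onwards. Pachytene clusters are mostly intergenic loci, many of them transcribed in opposite directions from a shared start region, that are switched on at the pachytene stage by the transcription factor A-MYB (gene Mybl1). Hybrid clusters share features of both. DDX4, the mouse homologue of fly Vasa, is an RNA helicase of the germ granules in which piRNAs are made and held. Of the 214 clusters, 84 were prepachytene, 30 hybrid and 100 pachytene by the class in their names. By the same names 114 carried the symbol of a host gene (pi-Symbol) and 100 were intergenic and named by chromosome band; coordinates below are those of the cluster names, build mm10.

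Start regions of some clusters that carry the results are shown here as RefSeq promoter windows, because neighbouring clusters taken as head-to-head pairs differed between the genotypes in their balance. Each window runs from 250 bases before to 50 bases after an annotated start, in build GRCm38.p6, on the strand of the gene. Capitals mark the letters CAGTT or their reverse complement AACTG, a core of the MYB recognition motif, and CCAAT or its reverse complement ATTGG; the motifs do not overlap each other.
Gm10619 (between 7-qD2-24830 and 7-qD2-11976, chr7:73816454-73816753, minus strand): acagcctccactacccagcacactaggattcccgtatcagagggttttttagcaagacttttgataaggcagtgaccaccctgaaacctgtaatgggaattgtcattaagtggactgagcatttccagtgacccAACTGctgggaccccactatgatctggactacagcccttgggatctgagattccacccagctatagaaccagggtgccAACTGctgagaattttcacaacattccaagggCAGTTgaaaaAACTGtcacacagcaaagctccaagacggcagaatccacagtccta
4933440M02Rik (between 7-qF3-3125 and 7-qF3-246, chr7:125349737-125350036, minus strand): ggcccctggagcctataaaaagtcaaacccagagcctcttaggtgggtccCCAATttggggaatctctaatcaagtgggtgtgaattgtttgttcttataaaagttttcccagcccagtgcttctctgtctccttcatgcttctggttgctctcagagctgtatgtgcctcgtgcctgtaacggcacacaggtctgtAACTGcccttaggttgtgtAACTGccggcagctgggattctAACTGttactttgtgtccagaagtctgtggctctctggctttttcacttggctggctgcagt
Gm10505 (between 17-qA3.3-27363 and 17-qA3.3-26735, chr17:27324946-27325245, plus strand): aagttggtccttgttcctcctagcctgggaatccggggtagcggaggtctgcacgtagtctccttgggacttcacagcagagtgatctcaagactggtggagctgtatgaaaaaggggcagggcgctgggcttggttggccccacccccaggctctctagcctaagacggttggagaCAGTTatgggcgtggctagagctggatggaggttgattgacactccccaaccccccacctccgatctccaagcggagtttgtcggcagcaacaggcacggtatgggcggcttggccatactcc
4930444F02Rik (start of 10-qA3-2592, chr10:18831881-18832180, minus strand): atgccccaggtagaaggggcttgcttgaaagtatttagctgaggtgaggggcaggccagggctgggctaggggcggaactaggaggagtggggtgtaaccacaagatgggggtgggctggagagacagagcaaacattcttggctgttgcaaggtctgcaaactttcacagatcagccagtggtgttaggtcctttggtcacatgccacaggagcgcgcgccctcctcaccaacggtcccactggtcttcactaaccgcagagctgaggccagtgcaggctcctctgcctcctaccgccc

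The window between the 7-qD2 arms held 4 matches to the MYB-type letters, the 7-qF3 window 3 and the 17-qA3.3 window 1. The window of 10-qA3-2592 held none of these letters or of CCAAT and ATTGG, and other forms of the MYB motif were not searched in any window. Windows matched to some other clusters named below are not printed: those of pi-Exoc8, 13-qA5-208 and the 4-qB3-639 and 4-qB3-277 pair held 0 MYB-type matches each, and that of pi-Cdc42ep3 held 1. Any windows of the prepachytene clusters named below, and of pi-Eif2c2, pi-Tbl2 and pi-Pou6f1, are not listed singly. RefSeq placed a start within 300 bases of an end of 107 of the 214 clusters. CAGTT was found in 24 of 35 such pachytene windows (68.6%), in 11 of 18 hybrid windows (61.1%) and in 18 of 54 prepachytene windows (33.3%), beside 44.8% of all 32851 RefSeq promoter windows. CCAAT was found in 48.6% of the pachytene, 44.4% of the hybrid and 51.9% of the prepachytene windows, beside 37.4% of all windows. These are matches of letters and not measured binding.

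The heterozygous spermatid libraries held 21672427 and 22073869 cluster reads, against 24053372 and 23983880 in the wild-type spermatid libraries. All 214 clusters were listed in the 4 libraries, with a lowest count of 43 reads. The replicates of a genotype differed by more than sampling noise, with a chi-square per degree of freedom of 199.7 for the heterozygous and 143 for the wild-type pair. The labels do not say that the libraries came from separate animals, so p-values measure the spread between these libraries, which may be technical.

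The 6 small RNA groups did not sort by their labelled genotype or cell type. Distances between group means were taken as the root mean square difference of log2 shares over the 206 clusters with at least 200 reads in every library. The log2 shares of each library were first centred on their median over these clusters, so a shift common to all clusters does not count. Wild-type spermatids lay nearest to heterozygous spermatocytes, at 0.288, and heterozygous spermatids nearest to homozygous spermatocytes, at 0.433. Heterozygous and wild-type spermatids were 0.632 apart. Homozygous spermatids lay nearest to wild-type spermatocytes, at 0.586. Over the 99 pachytene clusters alone the 3 nearest pairs of groups were wild-type spermatids with heterozygous spermatocytes (0.317), homozygous spermatids with wild-type spermatocytes (0.426) and heterozygous spermatids with homozygous spermatocytes (0.531). Replicates of a group were 0.0633 to 0.338 apart, and the heterozygous and wild-type spermatid replicates 0.149 and 0.137 apart. Why groups of unlike labels lay nearest to each other was not tested, and neither was whether any small RNA library carries the label of another group. Every result below is given by the labels, so it describes the libraries labelled heterozygous and wild type, and its genotype and cell type are only as sure as those labels.

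**Figure D1:**
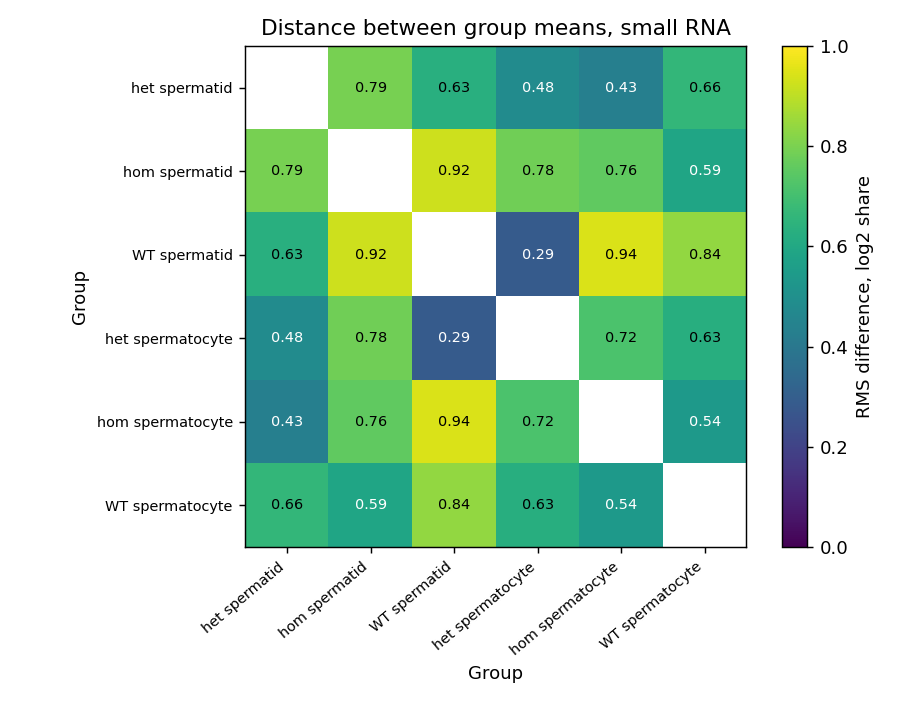
Distance between the means of the 6 small RNA groups, as the root mean square difference of log2 shares over 206 clusters, with each library centred on its median. Het is heterozygous, hom homozygous and WT wild type, each from 2 libraries. Darker cells are nearer groups: the smallest distance, 0.29, was between WT spermatids and het spermatocytes, and the distance between het and WT spermatids was 0.63.

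Prepachytene clusters took a larger share in the heterozygous spermatids and pachytene clusters a smaller one. Prepachytene clusters held 10.7% and 9.24% of cluster reads in the heterozygous libraries, against 5.88% and 5.06% in the wild-type libraries. Hybrid clusters held 5.27% and 4.97% in the heterozygous libraries, against 3.90% and 3.74% in the wild-type libraries. Pachytene clusters held 84.0% and 85.8% in the heterozygous libraries, against 90.2% and 91.2% in the wild-type libraries. In none of the 3 classes did the libraries of the genotypes overlap. The means differed by 4.51, 1.30 and -5.81 points for prepachytene, hybrid and pachytene clusters, and each comparison gave an exact two-sided permutation p of 0.333, the smallest that 2 libraries against 2 allow.

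Set against each other, prepachytene clusters had 12.8 and 10.8 reads per 100 pachytene reads in the heterozygous libraries, against 6.52 and 5.55 in the wild-type libraries. This ratio does not depend on the total of cluster reads. It was lower in both wild-type spermatid libraries than in any of the other 10 small RNA libraries, whose range was 8.19 to 21.7. Reads were also spread over more clusters in the heterozygous libraries, where 21 and 20 clusters held 50% of reads, against 17 and 17 in the wild-type libraries.

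**Figure D2:**
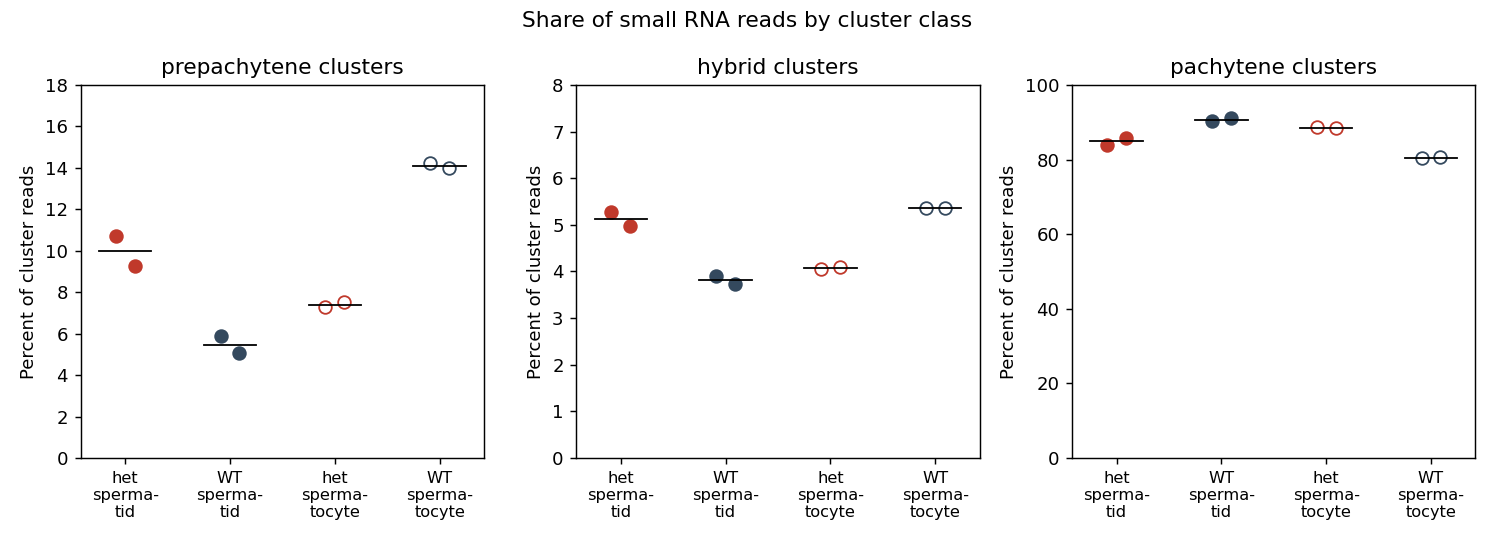
Percent of cluster reads on prepachytene, hybrid and pachytene clusters in each library of heterozygous (het) and wild-type (WT) spermatids and spermatocytes; points are libraries and lines are means of 2, and the 3 axes differ in scale. Het spermatids had more prepachytene reads (10.7% and 9.24%) than WT spermatids (5.88% and 5.06%), and in spermatocytes the order was the other way round.

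Cluster by cluster, 173 of 214 clusters (80.8%) passed edgeR's quasi-likelihood test at an adjusted p of 0.05, 133 of them higher in heterozygous spermatids (62.1%) and 40 lower (18.7%). At an unadjusted p under 0.05 there were 176. The heterozygous and wild-type libraries did not overlap at 202 clusters (94.4%). The median cluster differed by a log2 of 0.44 in share, and by 0.09 under TMM scaling, which sets the bulk of clusters level. With TMM 165 clusters (77.1%) were called, 93 higher (43.5%) and 72 lower (33.6%), so 56.4% of calls were higher with TMM and 76.9% on shares. The 40 lower clusters and 93 of the higher ones were called the same way under the 3 scalings run (total cluster reads, TMM and RLE), and "rose" and "fell" below refer to these unless a scaling is named.

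The size of the changes was well above the spread within a genotype. Between heterozygous and wild-type mean shares 118 clusters differed by more than 1.5-fold, 98 up and 20 down, whereas none did between the 2 heterozygous or the 2 wild-type libraries. The log2 changes had an SD of 0.65 over the 214 clusters, against 0.14 between the heterozygous libraries and 0.14 between the wild-type libraries. With TMM scaling 61 clusters were past 1.5-fold, 28 up and 33 down.

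Most prepachytene clusters rose. Of the 84, 69 were higher in heterozygous spermatids, 1 was lower and 14 did not pass; 61 were higher under the 3 scalings, and with TMM 4 were lower. Their median log2 change in share was 0.84, with quartiles of 0.71 and 0.93 and a range between -1.73 and 1.15, beside 0.44 over all 214 clusters. Of the 14 that did not pass, all had a wild-type mean share of at most 0.0307%. Some that passed were also under that share, among them pi-Fbxo41, pi-Shank3, pi-Fbxl18 and pi-Ing5. Hybrid clusters had a median of 0.61, with 20 of 30 higher and 3 lower, and 15 higher and 8 lower with TMM. Pachytene clusters were divided: 44 of 100 were higher and 36 lower on shares, with a median log2 change of 0.10, but 17 were higher and 60 lower with TMM, with a median of -0.24. Their range ran between -2.17 and 1.17. The genic and intergenic groups largely repeated the classes, with 86 of 114 genic clusters higher and 5 lower, and 47 of 100 intergenic clusters higher and 35 lower. With TMM 73 genic clusters were higher and 13 lower, and 20 intergenic clusters were higher and 59 lower.

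**Figure D3:**
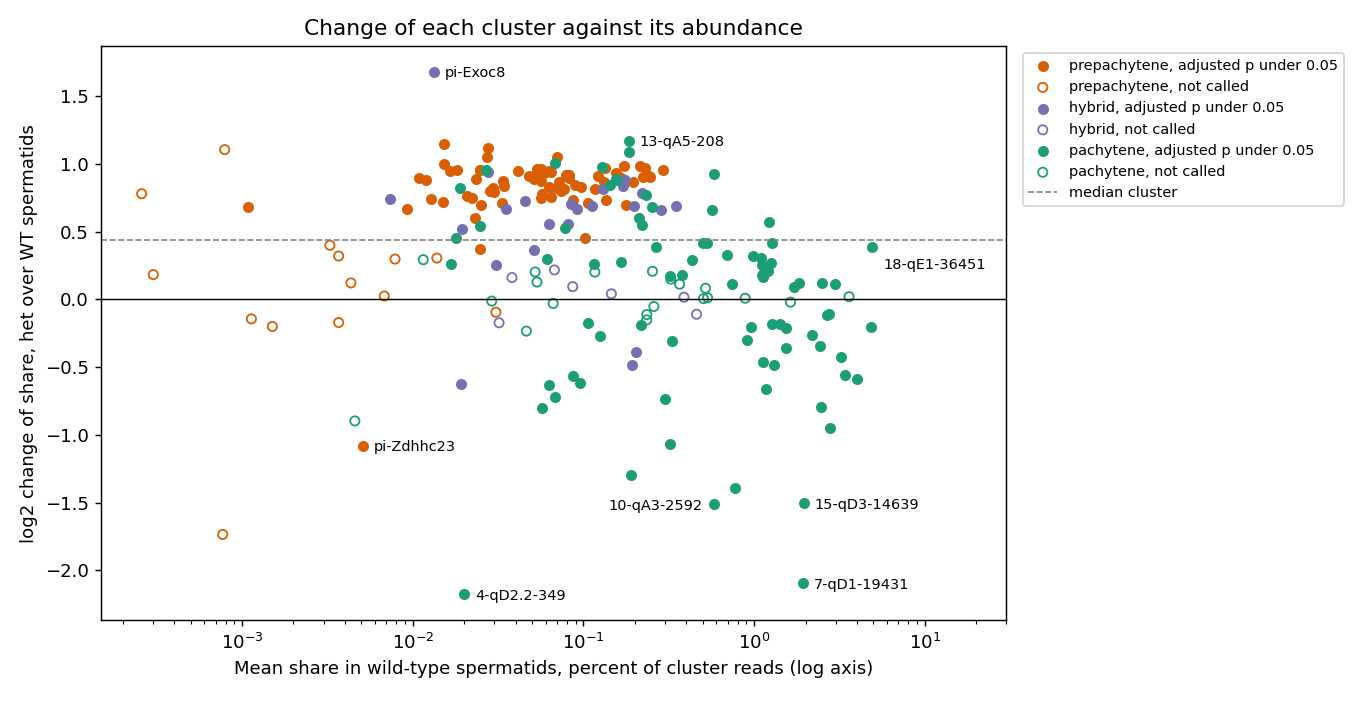
Log2 change of share (heterozygous, het, over wild-type, WT, spermatids) of the 214 clusters against their mean share in WT spermatids, in percent of cluster reads on a log axis; colour is the class, filled points passed edgeR at an adjusted p of 0.05 and the dashed line is the median cluster. The quartiles are 0.71 and 0.93 for prepachytene and -0.30 and 0.32 for pachytene clusters, while the full ranges are -1.73 to 1.15 for prepachytene and -2.17 to 1.17 for pachytene clusters; clusters just above 0 change sign with TMM scaling.

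The largest rise was in pi-Exoc8, a hybrid cluster on the gene of an exocyst subunit, which tethers secretory vesicles (chr8:124893111-124897776). It took 0.0405% and 0.0443% of reads in heterozygous spermatids, against 0.0140% and 0.0125% in wild-type spermatids. The heterozygous libraries were both about 3 times the wild-type ones, with a log2 change of 1.68 (SE 0.103, edgeR adjusted p = 6.94e-07) and 1.24 relative to the median cluster. It was also higher in heterozygous than in wild-type spermatocytes, at 0.0158% and 0.0156% against 0.00824% and 0.00837%.

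Among pachytene clusters the largest rises were in 3 intergenic loci. Cluster 13-qA5-208 (chr13:50268024-50317360) took 0.408% and 0.421% in heterozygous spermatids, against 0.187% and 0.180% in wild-type spermatids (log2 1.17, SE 0.0845, edgeR adjusted p = 1.63e-06). Cluster 18-qE1-1295 (chr18:67066587-67081661) took 0.391% and 0.393% in heterozygous libraries, against 0.185% and 0.183% in wild-type libraries. Cluster 10-qB5.1-221 (chr10:66698292-66708692) took 0.139% and 0.136% in heterozygous libraries, against 0.0684% and 0.0680% in wild-type libraries. In each of the 3 the heterozygous libraries were about 2 times the wild-type ones and agreed among themselves within a few percent. The last 2 are arms of head-to-head pairs, described further on.

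The other 6 of the 10 largest rises were prepachytene clusters on host genes. The rule that named rises and falls took only clusters without overlap of libraries, as at 202 of 214 clusters (94.4%). pi-Fbxo41, on the gene of an F-box protein, took 0.0357% and 0.0315% in heterozygous spermatids, against 0.0170% and 0.0135% in wild-type spermatids. pi-Shank3, on the gene of a synaptic scaffold protein, took 0.0634% and 0.0558% in heterozygous spermatids, against 0.0296% and 0.0252% in wild-type spermatids. pi-Fbxl18, on another F-box gene, took 0.0614% and 0.0511% in heterozygous spermatids, against 0.0295% and 0.0248% in wild-type spermatids. In each of the 3 both heterozygous libraries were nearly 2 times or more than 2 times the wild-type ones. pi-March08, whose symbol was not matched to a gene here, took 0.155% and 0.136% in heterozygous spermatids, against 0.0773% and 0.0635% in wild-type spermatids. pi-Ing5, on the gene of a reader of methylated histone H3, took 0.0321% and 0.0285% in heterozygous spermatids, against 0.0167% and 0.0137% in wild-type spermatids. pi-Lpp, on the gene of a focal adhesion protein, took 0.443% and 0.410% in heterozygous spermatids, against 0.227% and 0.204% in wild-type spermatids. All 6 had log2 changes of 0.98 to 1.15 in share, and of 0.55 to 0.71 relative to the median cluster.

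The prepachytene clusters of smallest p in their class showed changes of the same order. pi-Zyg11b, on the gene of a cullin ligase receptor, took 0.436% and 0.396% in heterozygous spermatids, against 0.236% and 0.208% in wild-type spermatids (log2 0.91, SE 0.0785). pi-Ccrn4l, on the gene now called Noct, which encodes the circadian phosphatase nocturnin, took 0.151% and 0.146% in heterozygous spermatids, against 0.0821% and 0.0752% in wild-type spermatids. pi-Phf20, on the gene of a chromatin reader of the NSL acetyltransferase complex, took 0.607% and 0.518% in heterozygous spermatids, against 0.315% and 0.266% in wild-type spermatids. Heterozygous and wild-type libraries were apart in all 3, which were picked by p-value from these same libraries. Among the hybrid clusters, pi-Cbl, on the gene of an E3 ubiquitin ligase, took 0.565% and 0.555% in heterozygous libraries, against 0.359% and 0.338% in wild-type libraries. The intergenic hybrid cluster 6-qF3-1063 took 0.450% and 0.444% in heterozygous libraries, against 0.282% and 0.284% in wild-type libraries.

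The falls were fewer, and the steepest of them were larger than any rise. The steepest was in the small pachytene cluster 4-qD2.2-349 (chr4:123894130-123896600), which took 0.00419% and 0.00468% in heterozygous spermatids, against 0.0207% and 0.0194% in wild-type spermatids. Its log2 change was -2.17 (SE 0.149, edgeR adjusted p = 1.31e-06), and -2.61 relative to the median cluster. The fall that moved most reads was in 7-qD1-19431 (chr7:73105311-73126555), with 0.440% and 0.462% in heterozygous spermatids, against 1.90% and 1.95% in wild-type spermatids. The log2 change was -2.09 (SE 0.0349, edgeR adjusted p = 2.49e-11). In order of share this cluster was number 52 in heterozygous spermatids, against number 16 in wild-type spermatids.

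Cluster 15-qD3-14639 (chr15:74636387-74648452) took 0.686% and 0.688% in heterozygous spermatids, against 1.93% and 1.97% in wild-type spermatids. Cluster 10-qA3-2592 (chr10:18796805-18831930), whose start region is printed above, took 0.202% and 0.206% in heterozygous spermatids, against 0.544% and 0.618% in wild-type spermatids. Cluster 15-qE1-8387 (chr15:78653228-78670532) took 0.287% and 0.301% in heterozygous spermatids, against 0.788% and 0.751% in wild-type spermatids. In all 3 the wild-type libraries held more than 2 times the heterozygous share, with log2 changes of -1.51, -1.51 and -1.39. Clusters 6-qC3-100 and 6-qC3-2394 fell by 1.30 and 1.07 on the log2 scale. Cluster 12-qE-23911 (chr12:98382371-98420048) took 1.41% and 1.47% in heterozygous spermatids, against 2.75% and 2.81% in wild-type spermatids. It was the only one of the 10 largest falls that was also among the 10 most abundant clusters of wild-type spermatids.

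Host-gene clusters were rare among the falls. pi-Cdc42ep3, a pachytene cluster on the gene of an effector of the small GTPase Cdc42, took 0.0380% and 0.0280% in heterozygous spermatids, against 0.0578% and 0.0570% in wild-type spermatids (log2 -0.80, SE 0.131). pi-Zdhhc23, on the gene of a palmitoyltransferase, was the 1 prepachytene cluster called lower, with 0.00262% and 0.00222% in heterozygous spermatids and 0.00547% and 0.00474% in wild-type spermatids. Its log2 change of -1.08 had an SE of 0.43 and an edgeR adjusted p of 0.0407. With only the 4 libraries compared in the fit the edgeR adjusted p was 0.000435. The call was lost when each of the 4 libraries was left out in turn, which leaves 1 library in a group, with log2 changes of -1.20 to -0.96. The 3 hybrid clusters that fell, named here after their values were seen, were pi-Eif2c2, on the gene of the Argonaute protein AGO2, pi-Tbl2 and pi-Pou6f1. pi-Eif2c2 took 0.162% and 0.147% in heterozygous spermatids, against 0.207% and 0.198% in wild-type spermatids.

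**Figure D4:**
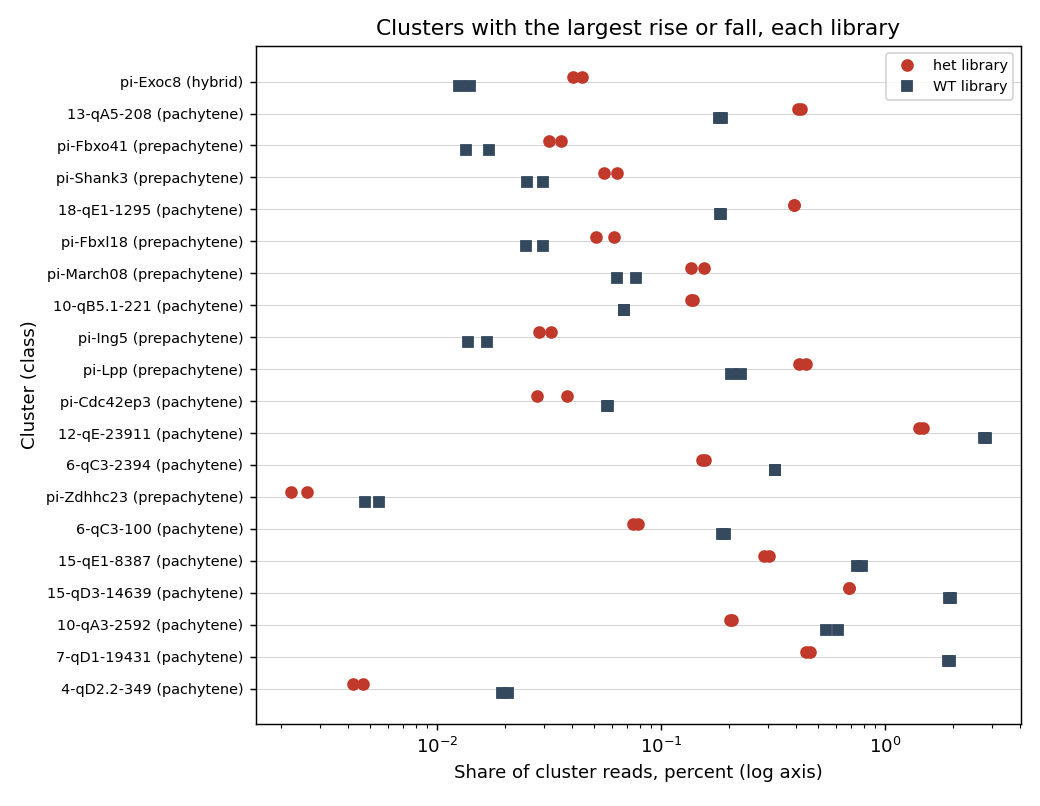
Share of cluster reads (percent, log axis) in each heterozygous (het) and wild-type (WT) spermatid library for the 10 largest rises and the 10 largest falls; circles are het libraries and squares WT libraries. In each row the 2 circles stand apart from the 2 squares, to the right for the rises from pi-Exoc8 to pi-Lpp and to the left for the falls from pi-Cdc42ep3 to 4-qD2.2-349. The rule that picked these clusters required this separation.

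The 10 most abundant clusters of a library together took 32.2% and 32.9% of reads in the heterozygous spermatids, against 34.9% and 35.3% in the wild-type spermatids. The 10 largest by mean share in wild-type spermatids were all intergenic pachytene clusters. The top cluster was 18-qE1-36451 (chr18:67029446-67066460) in all 4, with 6.30% and 6.56% in heterozygous spermatids, against 4.90% and 4.95% in wild-type spermatids. Its log2 change in share was 0.38 (SE 0.0272, edgeR adjusted p = 1.50e-06), but 0.04 with TMM (adjusted p = 0.279). Cluster 2-qE1-35981 took 4.18% and 4.26% in heterozygous spermatids, against 4.77% and 4.93% in wild-type spermatids. Clusters 9-qC-31469, 5-qF-14224 and 9-qA5.3-24188 fell by 0.59, 0.56 and 0.42 on the log2 scale. In each of them both heterozygous libraries were below both wild-type ones.

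Besides 12-qE-23911, described above, the remaining abundant clusters were nearly level in share. Cluster 6-qF3-28913 took 3.63% and 3.66% in heterozygous spermatids, against 3.59% and 3.60% in wild-type spermatids (log2 0.02, edgeR adjusted p = 0.437), and with TMM its log2 change was -0.32 (adjusted p = 1.92e-05). Cluster 5-qG3-23659 took 3.20% and 3.21% in heterozygous spermatids, against 2.94% and 2.99% in wild-type spermatids, a log2 change of 0.11 that turned to -0.23 with TMM. Clusters 7-qD2-24830 and 17-qA3.3-26735 differed by -0.11 and -0.12. The call of 17-qA3.3-26735 was lost without each of the 4 libraries in turn (log2 -0.12 each time), and that of 5-qG3-23659 without 3 of them (log2 0.10 to 0.12). With only the 4 libraries compared in the fit both were called, with edgeR adjusted p-values of 0.00101 for 17-qA3.3-26735 and 0.00102 for 5-qG3-23659. Relative to the median cluster all 10 were lower in heterozygous spermatids, by between 0.05 and 1.38 on the log2 scale.

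The balance between the arms of head-to-head pairs differed between the genotypes. Head-to-head pairs were taken as neighbouring clusters with a gap of at most 200 bases, which gave 15 pairs with gaps of 38 to 195 bases. The cluster names give no strand, so opposite transcription of the arms was not checked. The ratio of left to right reads was tested with limma on its log2 value, an analysis chosen after the data were seen; within a pair this ratio does not depend on how libraries are scaled. The ratio differed at 15 of 15 pairs (100%), with Benjamini-Hochberg adjusted p-values of at most 0.00298, and at 15 of 15 with the 4 spermatid libraries alone. The size of the difference had a median of 0.58 on the log2 scale and was past 1.5-fold at 7 pairs. In spermatocytes the ratio differed at 10 of 15 pairs. Taken singly, 173 of all 214 clusters (80.8%) were called in spermatids. Ratios of clusters outside such pairs were not tested, so the count is not shown to be particular to head-to-head pairs.

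At 7-qD1-654 and 7-qD1-19431, which are 38 bases apart, the left arm had 0.591 and 0.553 reads per read of the right arm in heterozygous spermatids, against 0.0796 and 0.0699 in wild-type spermatids. The change was 7.66-fold (log2 2.94, SE 0.0645, limma adjusted p = 3.19e-09). The left arm rose (0.260% and 0.255% in heterozygous libraries, against 0.151% and 0.137% in wild-type libraries) while the right arm fell. At 18-qE1-36451 and 18-qE1-1295 the ratio was 16.1 and 16.7 in heterozygous spermatids, against 26.5 and 27.1 in wild-type spermatids. At 10-qB5.1-5404 and 10-qB5.1-221 it was 6.35 and 6.65 in heterozygous spermatids, against 13.2 and 12.7 in wild-type spermatids. In both of these the smaller arm gained on the larger one.

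The larger arm lost ground at 10 of the 15 pairs. On shares both arms were called the same way at 6 pairs, in opposite ways at 4, and at 5 a single arm was called. Of the pairs whose start windows are printed, 7-qD2-24830 over 7-qD2-11976 was 2.03 and 2.01 in heterozygous spermatids, against 2.50 and 2.44 in wild-type spermatids. 7-qF3-3125 over 7-qF3-246 was 1.47 and 1.41 in heterozygous spermatids, against 2.50 and 2.23 in wild-type spermatids. 17-qA3.3-27363 over 17-qA3.3-26735 was 0.780 and 0.783 in heterozygous spermatids, against 0.914 and 0.915 in wild-type spermatids. In each the left arm lost on the right one. At the other pair with a matched window, 4-qB3-639 and 4-qB3-277, the left arm gained slightly, with a log2 ratio of 0.18 and 0.16 in heterozygous spermatids, against 0.07 and 0.08 in wild-type spermatids. No source used here says how reads that match more than 1 place were assigned, so values of clusters with similar sequence are uncertain to that extent.

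**Figure D5:**
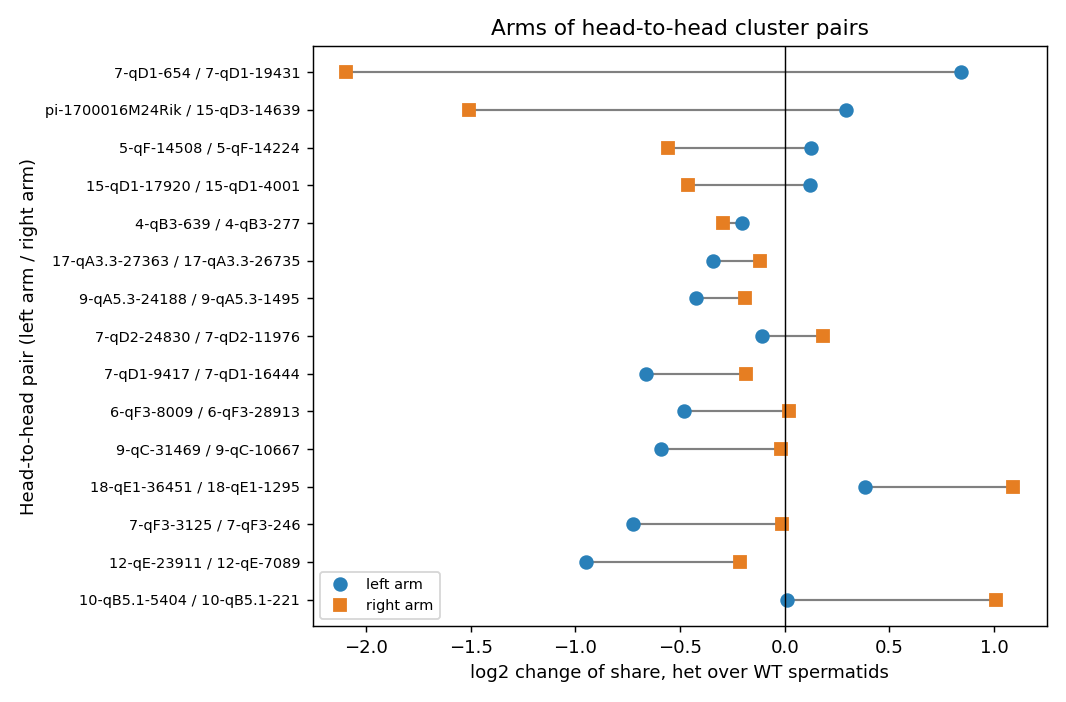
Log2 change of share (heterozygous, het, over wild-type, WT, spermatids) of the left arm (circles) and the right arm (squares) of 15 head-to-head cluster pairs, ordered by the change of the left-to-right ratio. The distance between circle and square is the change of the arm ratio and does not depend on scaling (2.94 for 7-qD1-654 and 7-qD1-19431), whereas the place of both on the axis does, and arms near 0 change sign with TMM.

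The homozygous spermatocyte libraries lay nearer to heterozygous than to wild-type spermatids at most clusters. Over the 20 largest rises and falls, the homozygous spermatocyte mean was nearer on the log scale to heterozygous than to wild-type spermatids at 20 of 20 clusters, the heterozygous spermatocyte mean at 3 of 20, and the homozygous spermatid and wild-type spermatocyte means at 9 of 20 each. Over all 214 clusters these counts were 182 for homozygous spermatocytes, 72 for heterozygous spermatocytes, 126 for homozygous spermatids and 125 for wild-type spermatocytes. The summed prepachytene share did not set homozygous spermatocytes apart in this way. Its mean was 9.98% in heterozygous and 5.47% in wild-type spermatids. It was 15.9% in homozygous spermatocytes, 14.5% in homozygous spermatids, and 14.1% and 7.39% in wild-type and heterozygous spermatocytes. Over the 84 prepachytene clusters the counts were 78 for homozygous spermatocytes, 77 for homozygous spermatids, 72 for wild-type spermatocytes and 39 for heterozygous spermatocytes. Among the falls, cluster 7-qD1-19431 took 0.386% and 0.399% in homozygous spermatocytes, close to the 0.440% and 0.462% of heterozygous spermatids. It took 1.14% and 1.13% in homozygous spermatids, 1.56% and 1.55% in heterozygous spermatocytes and 1.14% and 1.16% in wild-type spermatocytes. pi-Exoc8 took 0.0346% and 0.0342% in homozygous spermatocytes and at most 0.0158% in the 6 libraries of homozygous spermatids, heterozygous spermatocytes and wild-type spermatocytes. Of the 15 arm ratios, the homozygous spermatocyte mean was nearer to heterozygous than to wild-type spermatids at 15, the heterozygous spermatocyte mean at 1, and the homozygous spermatid and wild-type spermatocyte means at 6 each. The arm ratio of 7-qD1-654 to 7-qD1-19431 was 0.520 and 0.490 in homozygous spermatocytes and 0.0913 to 0.131 in the other 6 libraries outside the comparison. The 20 clusters were picked for their difference between heterozygous and wild-type spermatids, so these counts are descriptions, and what the likeness rests on was not tested.

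In spermatocytes the heterozygous difference had the other sign in most prepachytene clusters. Their summed share was 7.26% and 7.52% in heterozygous spermatocytes, against 14.2% and 14.0% in wild-type spermatocytes. The class medians of the log2 change in spermatocytes were -0.91 for prepachytene, -0.51 for hybrid and 0.07 for pachytene clusters. The test of the difference between the spermatid and spermatocyte effects called 168 of 214 clusters (78.5%), 118 higher (55.1%) and 50 lower (23.4%) in spermatids. With TMM it called 192 (89.7%), 91 higher (42.5%) and 101 lower (47.2%). pi-Lpp, for example, took 0.280% and 0.277% in heterozygous spermatocytes, against 0.580% and 0.605% in wild-type spermatocytes. Across the 214 clusters the spermatid and spermatocyte changes, which share no library, had a Spearman's rho of -0.59, and clusters are not independent replicates. Within classes it was -0.54 over the 84 prepachytene, -0.30 over the 30 hybrid and -0.09 over the 100 pachytene clusters.

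Length and log2 change had a Spearman's rho of 0.31 over all 214 clusters. Within classes it was 0.44 over the 84 prepachytene and -0.09 over the 100 pachytene clusters. With the wild-type share rho was -0.36 over all clusters, 0.42 over prepachytene and -0.27 over pachytene clusters. These are descriptions over clusters counted in the same libraries.

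Messenger RNA of the host genes was measured in separate round spermatid RNA libraries, 2 heterozygous and 2 wild type, with 15312153 to 24886664 counts. Of the 112 host genes found in the tables, 110 were tested, and 0 passed edgeR at an adjusted p of 0.05, beside 0 of 17809 genes (0.0%). At an unadjusted p under 0.05 there were 16 hosts and 7.28% of all genes, and with DESeq2 0 hosts passed and 12 had such a p. The hosts' median log2 difference was 0.29, with 82 positive and 28 negative, beside -0.01 over all genes. The value rested on wild-type library 1: without it the hosts' median was 0.06, and without wild-type library 2 it was 0.54. Over all genes the medians of these fits were 0.009 and 0.015. Wild-type library 1 stood apart, with Prm1, the gene of protamine 1, at 9709 and 11457 TPM in the heterozygous libraries, against 29239.6 TPM in wild-type library 1 and 9982 TPM in wild-type library 2.

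The hosts of the clusters that rose most showed no matching difference in RNA that passed the test. Exoc8 had 6.41 and 7.48 TPM in heterozygous spermatids, against 5.99 and 8.23 TPM in wild-type spermatids. Lpp had 95.6 and 95.3 TPM in heterozygous spermatids, against 82.4 and 98.7 TPM in wild-type spermatids. Ing5 had 16.1 and 19.6 TPM in heterozygous spermatids, against 19.6 and 18.5 TPM in wild-type spermatids. The genotypes overlapped in these 3. The other 3 hosts matched among the 10 largest rises had higher fitted values in heterozygous spermatids, at low levels. Fbxo41 had 0.14 and 0.18 TPM in heterozygous spermatids, against 0.00 and 0.06 TPM in wild-type spermatids, and Shank3 had 0.24 and 0.35 TPM in heterozygous spermatids, against 0.03 and 0.27 TPM in wild-type spermatids. Fbxl18 had 2.68 and 2.03 TPM in heterozygous spermatids, against 1.33 and 2.14 TPM in wild-type spermatids. The groups stood apart in Fbxo41 and overlapped in Shank3 and Fbxl18, with edgeR adjusted p-values of 0.519 for Fbxo41, 0.519 for Shank3 and 0.525 for Fbxl18. Over the 110 hosts the RNA change and the cluster change had a Spearman's rho of 0.11. Fewer cells of a type and less RNA per cell cannot be told apart in such bulk libraries.

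Of 27 genes of the piRNA pathway 26 were tested, and 0 passed edgeR at an adjusted p of 0.05, beside 0 of 17809 genes (0.0%). At an unadjusted p under 0.05 in edgeR there were 2, beside 7.28% of all genes. With DESeq2 0 pathway genes passed and 1 had such a p. Ddx4 itself had 188 and 182 TPM in heterozygous spermatids, against 165 and 235 TPM in wild-type spermatids (log2 -0.25, edgeR adjusted p = 0.519); the tables do not separate the knock-in allele from the wild-type one. Mybl1, the gene of A-MYB, had 9.53 and 8.14 TPM in heterozygous spermatids, against 5.93 and 10.3 TPM in wild-type spermatids. Of the PIWI genes, Piwil1 (MIWI, which binds pachytene piRNAs) had 9.34 and 7.98 TPM in heterozygous spermatids, against 4.89 and 11.7 TPM in wild-type spermatids. Piwil2 (MILI) had 8.21 and 7.69 TPM in heterozygous spermatids, against 4.60 and 7.73 TPM in wild-type spermatids. In Ddx4, Mybl1 and Piwil1 the wild-type libraries lay on both sides of the heterozygous ones.

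Marker genes were read in the same RNA libraries, since the small RNA tables hold none. The 7 round spermatid markers summed to 16084 and 18410 TPM in heterozygous libraries, against 40299 and 15975 TPM in wild-type libraries. The high sum was that of wild-type library 1, which was high in Prm1 and in Tnp1, the gene of transition protein 1 (3331 and 3888 TPM in heterozygous libraries, against 8042 and 2826 TPM in wild-type libraries). Acrv1, an acrosomal gene, was at 524 and 549 TPM in heterozygous libraries, against 501 and 516 TPM in wild-type libraries. Acr was also higher, at 330.5 and 324.15 TPM in heterozygous libraries, against 179.55 and 315.3 TPM in wild-type libraries. Tssk6 was lower, at 1089 and 1092 TPM in heterozygous libraries, against 1278 and 1173 TPM in wild-type libraries. In Tssk2 and Spaca1 the genotypes overlapped. The 5 pachytene spermatocyte markers summed to 6767 and 6784 TPM in heterozygous libraries, against 5981 and 6993 TPM in wild-type libraries, nearly all of it Ldhc, which spermatids also express. Of these, Sycp3, a component of the meiotic chromosome axis, was at 37.5 and 42.2 TPM in heterozygous libraries, against 67.1 and 49.7 TPM in wild-type libraries. Hormad1 was also lower, at 19.9 and 18.5 TPM in heterozygous libraries, against 25.5 and 22.6 TPM in wild-type libraries. In Sycp1, Piwil1 and Ldhc the genotypes overlapped. Summed immune markers (Cd74, Lyz2 and Ptprc) were at 15.5 and 13.2 TPM in heterozygous libraries, against 4.46 and 5.94 TPM in wild-type libraries. Summed Leydig markers (Insl3, Cyp17a1 and Star) were at 28.0 and 25.4 TPM in heterozygous libraries, against 15.3 and 14.0 TPM in wild-type libraries, nearly all of it Insl3. Summed Sertoli markers were at 30.1 and 29.7 TPM in heterozygous libraries, against 29.4 and 31.5 TPM in wild-type libraries, with Sox9 and Amh at 0 to 0.22 TPM. The part of such cells in the cluster results was not tested.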

How the data were processed

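Per the labels' protocols, the small RNA libraries used 200 ng of RNA from cell fractions enriched for the labelled stage and the MGIEasy kit. The authors deposited a table of counts for each library, which holds whole numbers of reads for each cluster name. Trim Galore and mm10 stand in the submitters' processing notes with no version; no source used here names the aligner or says how reads matching several places were counted. Cluster names give class and coordinates, and whether these begin at 0 or 1 is not stated. For round spermatid RNA the authors deposited expected counts (estimates, rounded here to whole numbers) and TPM (scaled by gene length and depth), per the file headers. FPKM and the tables of CB RNA and isoforms were not used here. The replicates compared differed by more than sampling noise, so neither was counted as a copy of the other.

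The 12 small RNA libraries, in 6 groups, were fitted together in edgeR 4.0.16 (quasi-likelihood F test, R 4.3.3) with total cluster reads as library size and filterByExpr, which kept all 214 clusters. A fitted change is thus a change of share. SEs are the log2 change over the root of F. The 6 spermatid RNA libraries were fitted with TMM factors, and p-values were adjusted by Benjamini-Hochberg over all clusters or genes, at 0.05. DESeq2 1.42.0 was run as an alternative, and limma 3.58.1 on arm ratios. The fits were tested on counts simulated from the kind of model that edgeR assumes. The cluster fit recovered 82.5% of planted log2 changes of 0.5 and called 1.15% of unchanged clusters. The RNA fit recovered 93.9% of planted log2 changes of 3 and called 0.0815% of unchanged genes. Smaller RNA changes were not simulated, so this does not show that changes of the size seen in host genes would be found. Class shares were compared by exact permutation. Same-numbered libraries of 2 groups of 2 are not known to be paired.

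Named clusters are the 10 largest rises and the 10 largest falls among clusters called without overlap of libraries, the 10 most abundant in wild-type spermatids, and the 3 of smallest p in each class. The clusters compared, the gene lists and this rule were chosen with earlier results of these data known. Alternatives were TMM, RLE, DESeq2, filters, a replicate block, fewer groups in the fit and leaving out each library. The ratio of prepachytene to pachytene reads and the arm ratios were added after seeing the data. Counts without molecular identifiers are not independent molecules.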

Additional observations from a re-analysis of the deposited data

Results flagged for a closer look

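The heterozygous difference was unlike in spermatids and spermatocytes at 168 of 214 clusters, by edgeR's test of the difference itself at an adjusted p of 0.05. The values that follow are the spermatid minus the spermatocyte log2 effect on shares, each past that threshold. Among the largest rises it was 0.76 for pi-Exoc8, 1.48 for 13-qA5-208, 2.16 for pi-Fbxo41, 2.47 for pi-Shank3 and 1.34 for 18-qE1-1295. It was 2.04 for pi-Fbxl18, 2.13 for pi-March08, 1.75 for 10-qB5.1-221, 1.76 for pi-Ing5 and 2.07 for pi-Lpp. Among the largest falls it was -3.16 for 4-qD2.2-349, -2.53 for 7-qD1-19431, -0.94 for 10-qA3-2592, -1.35 for 15-qD3-14639 and -1.42 for 15-qE1-8387. It was -1.56 for 6-qC3-100, -1.40 for 6-qC3-2394 and -1.50 for 12-qE-23911.

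Among the other abundant clusters it was -0.14 for 18-qE1-36451, -0.47 for 2-qE1-35981, -0.69 for 9-qC-31469, -0.38 for 6-qF3-28913 and -0.45 for 5-qF-14224. It was -0.60 for 9-qA5.3-24188, -0.48 for 7-qD2-24830 and 0.40 for 17-qA3.3-26735. Among the clusters named by class it was 1.62 for pi-Zyg11b, 1.37 for pi-Ccrn4l, 1.81 for pi-Phf20, 0.75 for 6-qF3-1063 and 1.12 for pi-Cbl. With TMM scaling 3 of these values did not hold: 17-qA3.3-26735 turned to -0.34, and pi-Exoc8 and 6-qF3-1063 were at 0.01 and 0.003, with edgeR adjusted p-values of 0.956 and 0.970. In pi-Exoc8 the heterozygous share was the higher one in both cell types.

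The class shares also moved in opposite ways in the cell types. Heterozygous minus wild type was 4.51 points in spermatids and -6.72 points in spermatocytes for prepachytene clusters, 1.30 and -1.28 points for hybrid clusters, and -5.81 and 8.01 points for pachytene clusters. This difference between cell types was not tested for the shares. The wild-type spermatid and heterozygous spermatocyte libraries were the nearest groups of the small RNA data and the homozygous spermatocytes lay nearest to the heterozygous spermatids, so these contrasts join groups that did not sort by label.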

How the results depend on the processing

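Total counts of called clusters stayed within 1.5 times of 173 under every alternative run: 165 with TMM, 163 with RLE, 160 with DESeq2, 173 without a filter, 172 of 204 clusters with a mean of at least 1000 reads, 190 without the homozygous libraries, 176 with the 4 libraries compared, and 159 to 162 when leaving out each library. Scaling moved the direction of calls. Lower clusters were 40 on shares, 72 with TMM, 62 with RLE and 62 with DESeq2. For the difference between spermatid and spermatocyte effects they were 50 on shares, 101 with TMM, 94 with RLE and 92 with DESeq2. Clusters past 1.5-fold were 118 on shares and 61 with TMM. Of the 34 named clusters, 2 reversed: 6-qF3-28913 had 0.02 on shares, -0.32 with TMM, -0.25 with RLE and -0.25 with DESeq2, and 5-qG3-23659 had 0.11 on shares, -0.23 with TMM, -0.16 with RLE and -0.16 with DESeq2. These flips come from the scaling itself, which shifts every cluster by the same amount.

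With the replicate block, which uses the replicate numbers, 175 clusters were called, and 168 for the difference between spermatid and spermatocyte effects. Same-numbered heterozygous and wild-type spermatid libraries deviated together (correlation 0.76 over clusters), but with 2 numbers this does not show that they were paired. Without heterozygous replicate 1 or 2 no host or pathway gene passed; over the fits that leave out each RNA library the counts ran between 0 and 67 for hosts and between 0 and 13 for pathway genes, with 2 hosts and 2 pathway genes without wild-type replicate 1. The high counts came without wild-type replicate 2, where the wild-type group was library 1 alone. Calls were widespread over all genes in that fit, so its counts are not particular to hosts or pathway genes. The median log2 difference there was 0.54 for hosts, 0.12 for pathway genes and 0.015 over all genes. Without wild-type replicate 1 these medians were 0.06, -0.01 and 0.009. Each of these fits left 1 library in a group, so no conclusion is drawn from their counts. Of the 214 clusters 204 had a mean of at least 1000 reads, and the 14 prepachytene clusters that did not pass had a wild-type share of at most 0.0307%. Some prepachytene clusters that passed were also under that share.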
